A study of Mus musculus with 72 samples.

Results

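The comparison described here sets the livers of mice given 40 mg/mL tertiary butyl alcohol (TBA) in drinking water for 14 d against those of mice given 10 mg/mL for the same 14 d. It takes all libraries that the labels place in these 2 groups, without controls, and every probe of the assay. Of the 72 libraries in the series, 17 enter it: 9 at 10 mg/mL and 8 of the 9 at 40 mg/mL, since replicate 5 at 40 mg/mL held only 10796 counts. All animals were single-housed female B6C3F1 mice, 9 to 11 weeks old, and both groups drank TBA, so that neither is untreated. The assay was TempO-Seq, which ligates and sequences pairs of short detector oligos on chosen transcripts, run on material scraped from sections of formalin-fixed, paraffin-embedded liver. Each value is a count per probe, named by gene symbol and probe number. In the text it is given as CPM, the count relative to library size, after scaling by TMM (trimmed mean of M-values), a factor that corrects for library composition. CPM values of different genes are not compared, because probes differ in efficiency. Each library is a separate animal, and replicate numbers only follow the order of listing. The series title asks whether TBA causes thyroid tumours in female mice by acting against the thyroid, and the comparison asks which liver transcripts separate the highest from the lowest dose.

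Hepatocytes make most plasma proteins, among them clotting factors, complement, apolipoproteins and, in mice, the major urinary proteins, small carriers that are filtered into urine and bind pheromones. They also carry the cytochrome P450 and UDP-glucuronosyltransferase enzymes that oxidise and conjugate foreign compounds, bilirubin and thyroxine. Adult hepatocytes rarely divide, and genes of mitosis such as Cdk1 and Ccnb1 are transcribed mainly between DNA replication and cell division.

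The libraries differed in composition more than in size. Totals were 8.32 to 11.4 M counts at 40 mg/mL and 8.59 to 11.3 M at 10 mg/mL, with a mean difference of -0.163 M (two-sided exact permutation p = 0.754). The 20 most abundant probes took 9.62%, 14.8% and 18.6% of counts at 40 mg/mL (lowest, median and highest of 8 animals) and 16.4%, 21.3% and 23.2% at 10 mg/mL (of 9). That share was 14.7% ± 3.65 (SD, n = 8) against 20.8% ± 1.95 (SD, n = 9; exact permutation p = 0.000576, adjusted over 3 measures 0.00173). TMM factors were higher at 40 mg/mL, with a mean of 1.24 ± 0.247 (SD, n = 8) against 0.932 ± 0.130 (SD, n = 9; exact permutation p = 0.0051, adjusted 0.00765). Replicates 7, 1, 2 and 8 at 40 mg/mL had factors of 1.58, 1.55, 1.39 and 1.30, and the other 4 lay between 0.978 and 1.12. At 10 mg/mL replicate 2 stood apart with 1.26, while the other 8 lay between 0.838 and 0.971.

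**Figure D1:**
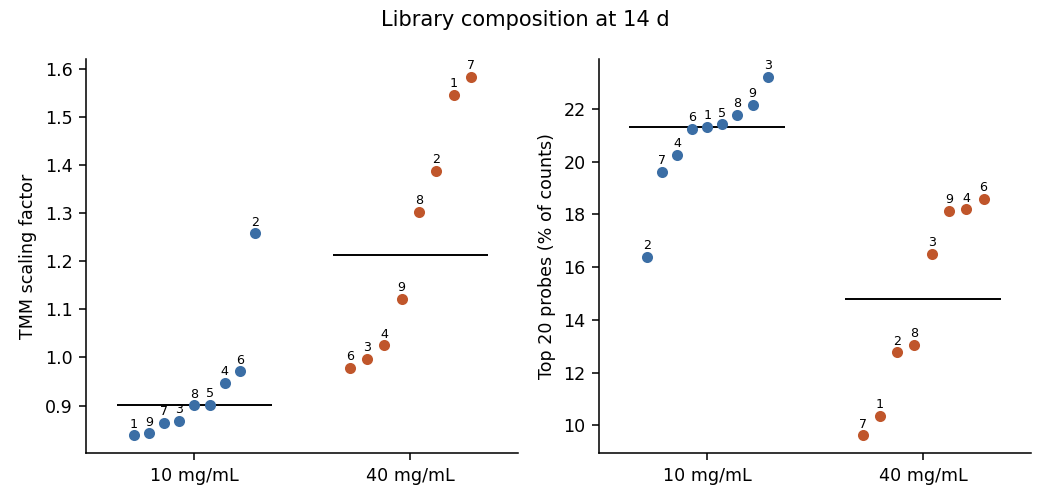
TMM scaling factor (left) and share of counts in the 20 most abundant probes (right, percent) for each animal at 14 d; numbers are replicates and lines are medians. Replicates 7, 1, 2 and 8 at 40 mg/mL have the highest factors and the lowest shares, and replicate 2 is the animal at 10 mg/mL that lies nearest to them.

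Of 17050 probes tested, 396 probes of 341 genes differed between the doses at an adjusted p under 0.05 (edgeR), which is 2.32% of those tested. At 40 mg/mL 149 probes were higher (0.874%), with a median log2 fold change of 1.10, and 247 were lower (1.45%), with a median of -0.76, beside a median of 0.04 over all probes. Members of the major urinary protein, clotting and complement, apolipoprotein and P450 groups were lower, and genes of mitosis were higher. The count depends on how the spread is estimated and on a few animals: 1 probe passed when the 2 groups were fitted alone, 10 passed without replicates 1 and 7 at 40 mg/mL (2 higher and 8 lower), and 2 passed, both higher and neither among the 396, when log2 of the scaling factor entered as a covariate. The scaling factor itself differed between the doses, so the covariate fit cannot tell dose from composition. Without replicate 7 alone 61 passed (17 higher and 44 lower), and without replicate 1 alone 72 (26 and 46). Of the 396 calls, 49 passed in every one of the 17 fits that left out 1 animal, 10 higher and 39 lower. All counts of passing genes below rest on the fit over all 8 dose and duration groups, and each carries this limit. Each stands beside the shares over all probes, 1.45% lower and 0.874% higher. A list with only 1 or 2 passing members is not read as a result about that list.

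**Figure D2:**
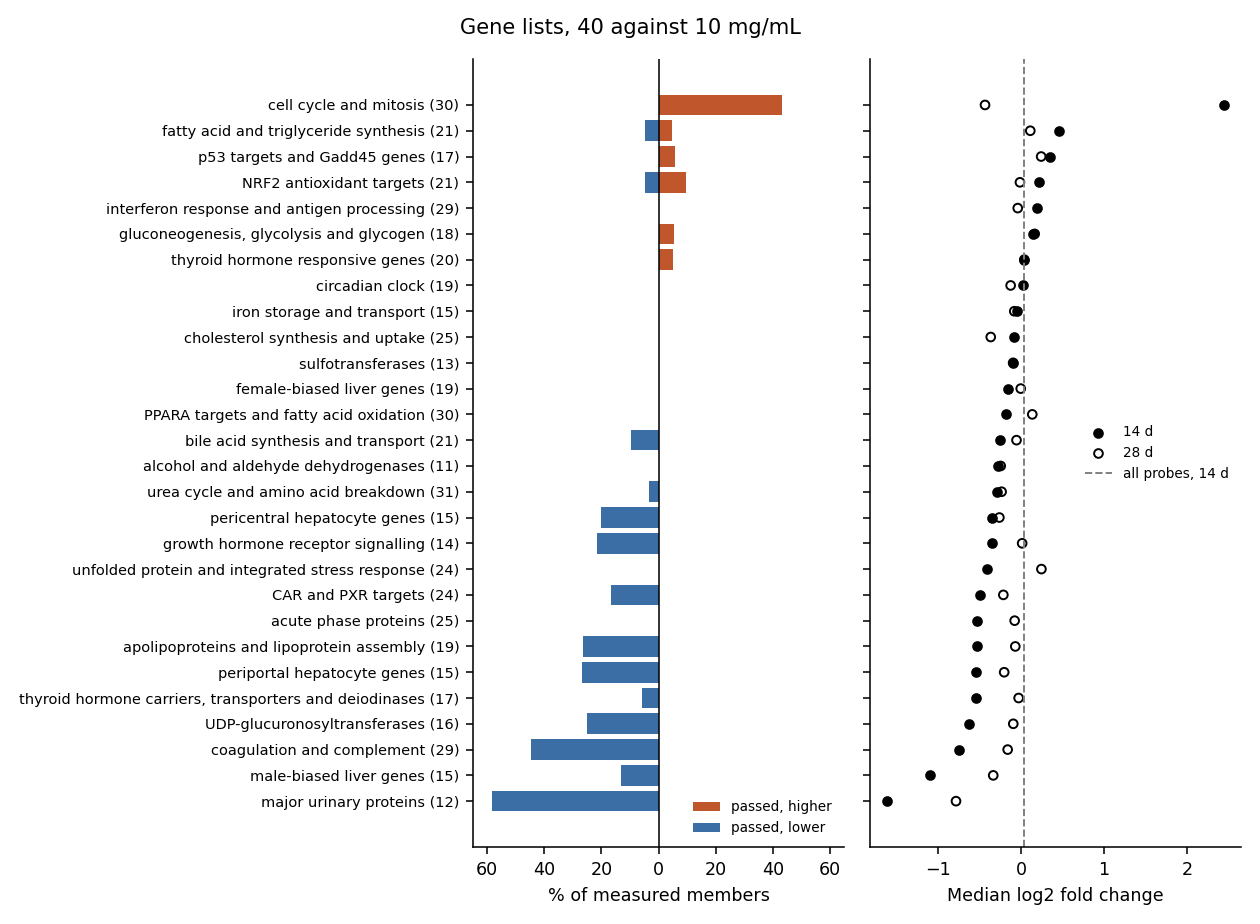
Gene lists at 40 against 10 mg/mL, with the number of measured members in brackets. Left, percent of members that passed at 14 d, higher (right of 0) or lower (left of 0); right, the median log2 fold change of each list at 14 d (filled) and 28 d (open), with the median of all probes at 14 d dashed. Cell cycle genes have the highest 14 d median, 2.45, and major urinary proteins the lowest, -1.62.

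Major urinary proteins were the group with the lowest median. Of 15 family members in the file 12 passed the filter on low counts, and of these 7 fell (Mup4, Mup7, Mup13, Mup15, Mup16, Mup19 and Mup20), 0 rose and 5 did not pass; the median log2 fold change was -1.62. Mup20, known as darcin, a male pheromone protein, stood at 29.9, 38.6 and 123 CPM at 10 mg/mL (lowest, median, highest) and at 5.04, 10.4 and 28.0 CPM at 40 mg/mL. All 8 animals at 40 mg/mL lay below all 9 at 10 mg/mL, and Mup20 was 3.81-fold lower (log2FC -1.93, SE 0.32, adjusted p = 0.000425).

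For Mup7 the values were 493, 7010 and 8580 CPM at 10 mg/mL and 422, 1240 and 2800 CPM at 40 mg/mL. The 493 CPM came from replicate 2; the other 8 animals at 10 mg/mL had at least 3410 CPM, above every animal at 40 mg/mL. Mup7 was 4.19-fold lower (log2FC -2.07, SE 0.37, adjusted p = 0.00118).

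Mup13 had 3620, 28700 and 34700 CPM at 10 mg/mL and 2950, 7450 and 16300 CPM at 40 mg/mL (log2FC -1.65, SE 0.30, adjusted p = 0.00116). Replicate 2 again held the low value at 10 mg/mL. Mup15, Mup16 and the probe Mup19_82400 had log2 fold changes of -1.69, -1.78 and -2.08 (SE 0.28, 0.28 and 0.39). Most of these copies share much of their sequence. Of the 50-base windows of the Mup15 and Mup19 transcripts, 100% occur in another gene's transcripts. The share is 86.7% for Mup7, 92.8% for Mup13 and 91.7% for Mup16. For Mup20 it is 50.5%, and its closest gene, Mup-ps19, holds 48.0%. A probe can therefore count reads of several copies, and of 4 Mup19 probes 1 (Mup19_68456) did not pass (log2FC -0.07, adjusted p = 0.964). Without replicates 1 and 7 at 40 mg/mL 5 of the 12 members passed as lower (median -1.38); with the covariate or with the 2 groups alone 0 passed, with medians of -0.96 and -1.63.

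**Figure D3:**
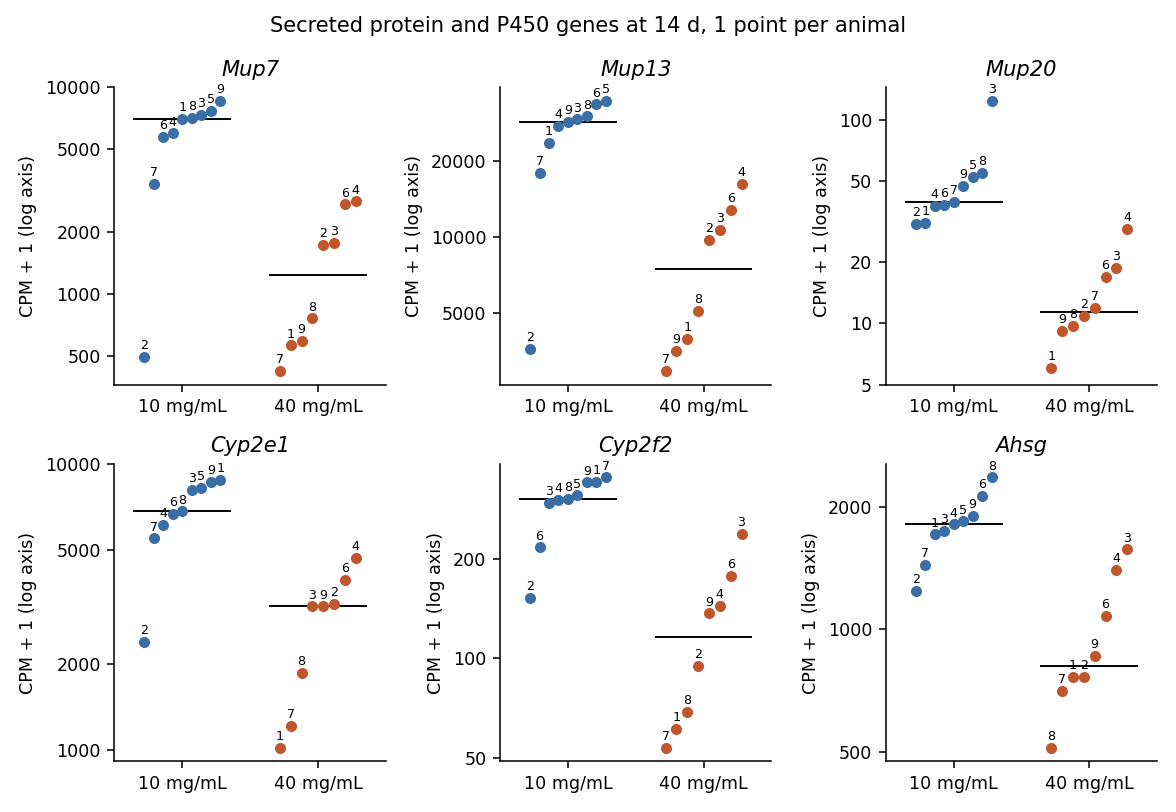
CPM + 1 (log axis) of 6 genes lower at 40 mg/mL, 1 point per animal, with replicate numbers and medians as lines. For Mup20 all 8 animals at 40 mg/mL lie below all 9 at 10 mg/mL. For Mup7, Mup13, Cyp2e1, Cyp2f2 and Ahsg replicate 2 at 10 mg/mL lies within the range of the other group.

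Other secreted liver proteins were lower as well. Of 29 measured clotting and complement genes 13 fell, 0 rose and 16 did not pass, all 29 having negative values; the median was -0.75. C8b, a chain of the membrane attack complex of complement, had 97.0, 275 and 345 CPM at 10 mg/mL and 35.5, 92.4 and 167 CPM at 40 mg/mL. It was 2.81-fold lower by its most abundant probe C8b_73022 (log2FC -1.49, SE 0.30, adjusted p = 0.00288) and 3.21-fold lower by C8b_32265 (log2FC -1.68, SE 0.42).

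Ahsg (fetuin-A, a plasma inhibitor of mineral deposition) fell from 1240, 1810 and 2360 CPM to 511, 812 and 1570 CPM, with 6 of 8 animals at 40 mg/mL below all 9 at 10 mg/mL (log2FC -0.91, SE 0.19, adjusted p = 0.00333). Proc, the anticoagulant protease protein C, and Vtn, the adhesion protein vitronectin, had log2 fold changes of -0.74 (SE 0.16) and -0.75 (SE 0.17). The clotting factors F7, F10, F12 and F13b, plasminogen (Plg), the complement genes C3, C8a and C9, and Fetub also fell, by 0.65 to 1.03 log2 units. With the covariate the median of the list was -0.08 and 0 members passed, and without replicates 1 and 7 it was -0.56 with 0 passing.

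Apolipoproteins and genes of lipoprotein assembly held 5 fallen members of 19 (0 rose, 14 did not pass, median -0.54). Apoe, a ligand by which remnant particles are taken up, had 23900, 42400 and 57400 CPM at 10 mg/mL and 7590, 16100 and 37100 CPM at 40 mg/mL. It was 2.21-fold lower (log2FC -1.15, SE 0.26, adjusted p = 0.0111), with 5 of 8 animals below all 9; of its other probes Apoe_31528 and Apoe_64729 passed as lower and Apoe_32107 did not pass (log2FC 0.13). Apoh and Apom, which travel on lipoproteins or bind phospholipid, were each below all 9 animals of the lower dose in 7 of 8 animals (log2FC -0.81, SE 0.18, and -0.83, SE 0.20). Apoc1 (log2FC -0.68, SE 0.17) and the cholesterol exporter Abca1 (log2FC -0.47, SE 0.13) were the other 2.

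The hepatocyte markers were lower in some of the same animals. The summed level of 8 hepatocyte markers (Alb, Ttr, Apoa1, Apob, Serpina1a, Tat, Fgb and Apoc3) was 25600, 44000 and 49700 CPM at 10 mg/mL and 9960, 20700 and 42900 CPM at 40 mg/mL. Replicates 1, 2, 7 and 8 at 40 mg/mL, which have the highest scaling factors, held 9957 to 13530 CPM, while replicates 3, 4 and 6 held 35920 to 42940 CPM, and replicate 9 held 27930 CPM, all 4 within the range at 10 mg/mL. In replicates 3, 4 and 6 the 12 major urinary proteins summed to 21890 to 32100 CPM, below 8 of the 9 animals at 10 mg/mL (32470 to 64270 CPM; replicate 2 had 8177). The 2 sums did not follow each other in every animal: replicate 9 had a major urinary protein sum of 8201 CPM, and replicate 2, with the third-highest scaling factor, 23150 CPM. Of the 8 markers 1, Serpina1a, passed as lower. In bulk sections, fewer cells of a type and less RNA per cell cannot be told apart. The part of composition in these falls was not tested. The covariate fit cannot decide it, because the scaling factor itself differed between the doses.

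Among enzymes of foreign compound metabolism, 4 of 24 measured targets of the nuclear receptors CAR and PXR fell and 0 rose (20 did not pass, median -0.50). Cyp2c54, a P450 of the Cyp2c family, had 1640, 4810 and 6980 CPM at 10 mg/mL and 216, 1260 and 3520 CPM at 40 mg/mL, with 5 of 8 animals at 40 mg/mL below all 9. The fitted difference was 3.10-fold (log2FC -1.63, SE 0.37, adjusted p = 0.0111). Of its 50-base windows 25.7% occur in another gene's transcripts. The carboxylesterase Ces2a (log2FC -1.22, SE 0.34), Cyp2c50 (log2FC -1.04, SE 0.30) and the efflux pump Abcc3 (log2FC -0.76, SE 0.22) were the others. Without replicates 1 and 7 at 40 mg/mL 0 of the 4 passed. The less abundant probes Ces2a_31253, Ces2a_65564 and Ces2a_78586 did not pass (log2FC -1.25, -0.628 and -0.525, adjusted p = 0.0878, 0.234 and 0.378). Nor did Abcc3_30114 (log2FC -0.736, adjusted p = 0.0948). The sum of the 24 targets had medians of 9050, 13100 and 6510 CPM at 0, 10 and 40 mg/mL for 14 d. All 9 controls lay below all 9 animals at 10 mg/mL. At 40 mg/mL against controls Cyp2c54 passed (log2FC -1.16, adjusted p = 0.0414). Ces2a, Cyp2c50 and Abcc3 did not (log2FC -0.835, -0.281 and -0.482, adjusted p = 0.131, 0.68 and 0.205).

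Cyp2b10, the usual marker of CAR activation, did not pass and spread widely within both doses. It had 232, 296 and 2750 CPM at 10 mg/mL and 20.3, 136 and 6420 CPM at 40 mg/mL (log2FC 0.34, SE 0.73, adjusted p = 0.882). At 40 mg/mL 5 of 8 animals lay below all 9 at 10 mg/mL and 1, replicate 9, lay above them all; without replicate 9 the log2 fold change was -1.44. Against the controls of 14 d, at a median of 54.6 CPM, Cyp2b10 had log2 fold changes of 3.76 at 10 mg/mL, which did not pass (adjusted p = 0.0878), and 4.09 at 40 mg/mL (adjusted p = 0.000796), where replicate 9 held 6420 CPM against a group median of 136. Por, which passes electrons to P450 enzymes, was highest in the same replicate 9 (266 CPM, against 23.5 to 74.3 CPM in the other 7), and its log2 fold change was -0.16 (SE 0.34, adjusted p = 0.878).

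Some genes of each liver zone fell, beside 1.45% of all probes that were lower. Of 15 measured pericentral genes 3 fell (Cyp2e1, Cyp1a2 and Oat), and of 15 periportal genes 4 fell (Cyp2f2, Pigr, Otc and Cdh1); 0 rose in either list, and the medians were -0.35 and -0.54. Without replicates 1 and 7 at 40 mg/mL, or with the covariate, 0 passed in either list. Cyp2e1, the pericentral P450 that oxidises ethanol and other small solvents, had 2390, 6830 and 8800 CPM at 10 mg/mL and 1020, 3180 and 4700 CPM at 40 mg/mL. Each of its 3 probes passed, the most abundant at 2.44-fold lower (log2FC -1.29, SE 0.26, adjusted p = 0.00225), and replicate 2 was the lowest animal at 10 mg/mL.

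Cyp1a2, a pericentral P450 that oxidises caffeine, was 2.62-fold lower (log2FC -1.39, SE 0.31, adjusted p = 0.0099), and Oat, an ornithine transaminase, 1.93-fold lower (log2FC -0.95, SE 0.27). Cyp2f2, the periportal P450, had 152, 304 and 353 CPM at 10 mg/mL and 52.6, 115 and 238 CPM at 40 mg/mL, with 6 of 8 animals below all 9 (log2FC -1.26, SE 0.24, adjusted p = 0.00166). Pigr, which carries immunoglobulin A into bile, was 2.60-fold lower (log2FC -1.38, SE 0.32), also with 6 of 8 below all 9. Otc, a urea cycle enzyme, and the cell adhesion gene Cdh1 had log2 fold changes of -0.73 (SE 0.17) and -0.78 (SE 0.21). Glul, which marks the innermost pericentral cells, did not pass (log2FC -0.12, SE 0.18, adjusted p = 0.826).

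Of 16 measured UDP-glucuronosyltransferases, 4 fell, 0 rose and 12 did not pass (median -0.63). Ugt1a1, which conjugates bilirubin and thyroxine, had 1700, 2990 and 3880 CPM at 10 mg/mL and 382, 1450 and 2590 CPM at 40 mg/mL. It was 1.98-fold lower (log2FC -0.99, SE 0.25, adjusted p = 0.0219), with 5 of 8 animals below all 9. The 2 lowest animals were replicates 1 and 7, at 382 and 418 CPM. Ugt2b1, Ugt2a3 and Ugt2b34 had log2 fold changes of -0.99 (SE 0.26), -0.80 (SE 0.19) and -0.69 (SE 0.20). Without replicate 1 or replicate 7 at 40 mg/mL 0 members passed, with medians of -0.50 and -0.51.

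Ugt1a6a (log2FC -0.76, SE 0.41, adjusted p = 0.35) and Ugt1a9 (log2FC -1.19, SE 0.62, adjusted p = 0.328; 0.65 with the covariate) did not pass. The Ugt1a genes share exons, so that 58.2% of the 50-base windows of Ugt1a1 occur in Ugt1a2 transcripts. Of 17 measured genes of thyroid hormone carriage, transport and deiodination, 1 (Abcc3) fell, 0 rose and 16 did not pass, with a median of -0.55. Dio1, the deiodinase that activates thyroxine, had log2FC -0.90 (SE 0.28, adjusted p = 0.0658) at its most abundant probe, and the probe Dio1_31911 passed (log2FC -0.78, adjusted p = 0.0243). Slco1a1 (log2FC -1.72, SE 0.58, adjusted p = 0.0948), Slc10a1 (log2FC -0.55, SE 0.17, adjusted p = 0.057) and Ttr (log2FC -0.43, SE 0.20, adjusted p = 0.251) did not pass. Ttr had a value of 0.08 with the covariate. Of 13 sulfotransferases 0 passed in either direction.

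Serpina7, thyroxine-binding globulin, did not pass at 14 d. Its most abundant probe Serpina7_66792 had 16.9, 26.3 and 707 CPM at 10 mg/mL and 22.3, 91.2 and 187 CPM at 40 mg/mL (log2FC -0.44, SE 0.68, adjusted p = 0.826). The 707 CPM came from replicate 3 at 10 mg/mL, and without it the log2 fold change was 0.93. At 28 d the same probe was higher at 40 mg/mL (log2FC 4.26, adjusted p = 0.00315), and the difference between durations passed (log2 difference -4.70, SE 1.00, adjusted p = 0.0484).

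Growth hormone related genes were lower in part: 3 of 14 fell (Igf1, Igfals and Prlr), 0 rose and 11 did not pass (median -0.35). Igf1, the growth factor the liver secretes in response to growth hormone, fell from 30.1, 42.3 and 58.7 CPM to 20.9, 27.3 and 38.7 CPM, with 6 of 8 animals below all 9 (log2FC -0.59, SE 0.14, adjusted p = 0.0129). Igfals, which holds it in a stable plasma complex, was 2.13-fold lower (log2FC -1.09, SE 0.30), and the prolactin receptor Prlr 1.76-fold lower (log2FC -0.82, SE 0.21). Of 15 male-biased liver genes 2 fell (Mup20 and Serpina1e, the latter with log2FC -0.95, SE 0.22), and of 19 female-biased genes 0 passed. The less abundant probe Serpina1e_62853 did not pass (log2FC -1.36, adjusted p = 0.0899). Elovl3, a fatty acid elongase of the male-biased list, passed at 1 of its 2 probes (Elovl3_30484, log2FC -1.69, SE 0.49, adjusted p = 0.0464). Gm10681, a predicted gene whose transcripts share 97.5% of their 50-base windows with Hsd3b4, had the largest fall among passing probes averaging 5 CPM or more, from 1.74, 33.0 and 135 CPM to 0, 3.27 and 26.1 CPM (8.48-fold lower; log2FC -3.08, SE 0.76, adjusted p = 0.0177). Acsm2, an acyl-CoA synthetase, fell by 1.68 log2 units (SE 0.45) at 1 of 3 probes.

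In bile acid metabolism 2 of 21 genes fell: Slc27a5, which activates bile acids for conjugation (log2FC -1.11, SE 0.29), and Cyp27a1, which oxidises the cholesterol side chain (log2FC -0.57, SE 0.14). Dgat1, which completes triglyceride synthesis, also fell at its most abundant probe (log2FC -0.55, SE 0.14). Its probe Dgat1_74428 did not pass (log2FC -0.373, adjusted p = 0.149). Igfbp2, a plasma binding protein of insulin-like growth factors, and Egfr, the receptor of epidermal growth factor, were singled out after their values were seen. Igfbp2 stood at 17.1 to 70.3 CPM at 10 mg/mL and 2.53 to 16.9 CPM at 40 mg/mL, without overlap (log2FC -1.35, SE 0.29, adjusted p = 0.00694). Egfr_66734 had 255 to 1020 CPM and 52.4 to 324 CPM, with 7 of 8 animals below all 9 (log2FC -1.57, SE 0.39, adjusted p = 0.0177). The same count lay below for Egfr_72327 and Egfr_29812 (log2FC -1.55 and -1.34).

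The genes that were higher at 40 mg/mL were led by mitosis. Of 34 listed cell cycle genes 30 passed the filter, and of these 13 rose (Top2a, Ccna2, Ccnb1, Cdk1, Rrm2, Birc5, Aurka, Aurkb, Plk1, Cdc20, Cenpe, Cenpf and Prc1), 0 fell and 17 did not pass; the median was 2.45. Their levels were low in both groups, and for 12 of the 13 the same number of animals at 40 mg/mL, 4 of 8, lay above all 9 at 10 mg/mL (3 for Rrm2). Cdk1, the kinase that drives entry into mitosis, was at 0.362, 1.25 and 4.27 CPM at 10 mg/mL and at 0.712, 5.46 and 79.9 CPM at 40 mg/mL. Replicates 7, 1, 6 and 4 had 79.9, 12.6, 10.8 and 7.07 CPM, above all 9 animals at 10 mg/mL, and the other 4 had 0.712 to 3.84 CPM, within their range. Cdk1 was 8.77-fold higher in the mean (log2FC 3.13, SE 0.63, adjusted p = 0.003). Its less abundant probes Cdk1_76534 and Cdk1_31242 did not pass (log2FC 2.9 and 3.51, adjusted p = 0.0586 and 0.0805).

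Birc5, which guides chromosome segregation and blocks caspases, had 21.8, 8.42, 16.0 and 79.8 CPM in replicates 1, 4, 6 and 7 and 1.08 to 3.64 CPM in the other 4, against 0.234 to 3.96 CPM at 10 mg/mL (log2FC 3.25, SE 0.63, adjusted p = 0.00176). Ccna2 (cyclin A2) had 41.1, 17.9, 35.3 and 137 CPM in those replicates and at most 4.01 CPM in the others (log2FC 3.11, SE 0.75, adjusted p = 0.0148). The same 4 animals lay above all 9 at 10 mg/mL for Ccnb1 (cyclin B1), Cdc20 (an activator of the anaphase-promoting complex), Kif2c and Kifc1 (spindle motors), Prc1, Cenpe, Cenpf, Knl1, Nuf2 and Hmmr. These genes had log2 fold changes of 3.12 (Cenpe) to 3.76 (Hmmr, SE 0.99, adjusted p = 0.0251). Pcna, the sliding clamp of DNA polymerase, did not pass (log2FC 0.11, adjusted p = 0.779). Nor did the helicase genes Mcm2, Mcm3, Mcm5, Mcm6 and Mcm7, with log2 fold changes of 0.55 to 1.16. The replication-dependent histone gene H2bc8, described below, did pass as higher.

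The summed level of the 30 genes was 75.2, 113 and 179 CPM at 10 mg/mL (lowest, median, highest). At 40 mg/mL it was 1276 CPM in replicate 7, 538.5 in replicate 1, 466.5 in replicate 6, 320.4 in replicate 4 and 83.5 to 142 CPM in the other 4. Replicates 7 and 1 have the 2 highest scaling factors of the comparison. Replicates 4 and 6 have 1.03 and 0.978 and hepatocyte marker sums of 41710 and 42940 CPM, within the range at 10 mg/mL. The part of composition in the cell cycle rise was not tested. The summed level of 9 Kupffer cell markers (liver macrophages) was 103 to 277 CPM at 10 mg/mL. It was 348.9, 330.6, 321.5 and 320.9 CPM in replicates 4, 7, 6 and 1 at 40 mg/mL, the same 4 animals, and 105.7 to 250.1 CPM in the other 4; each of the 9 genes had a positive value and 0 passed. The Kupffer sum was 228 to 303 CPM at 0 mg/mL and 139 to 406 CPM at 20 mg/mL for 14 d. In these groups 4 of 9 and 7 of 9 animals also lay above all animals at 10 mg/mL. The part of Kupffer cells in the cell cycle rise was not tested. At 0 mg/mL the cell cycle sum was 106 to 184 CPM and at 20 mg/mL 78.0 to 222 CPM, where 3 of 9 animals lay above all animals at 10 mg/mL. Without replicate 7, 0 of the 30 genes passed (median 1.51), and without replicates 1 and 7 also 0 (median 1.16); 0 passed with the covariate (median 1.45), with the 2 groups alone (2.43) and in limma, which weights libraries by quality (0.65). DESeq2 gave no adjusted p for 28 of the 30.

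**Figure D4:**
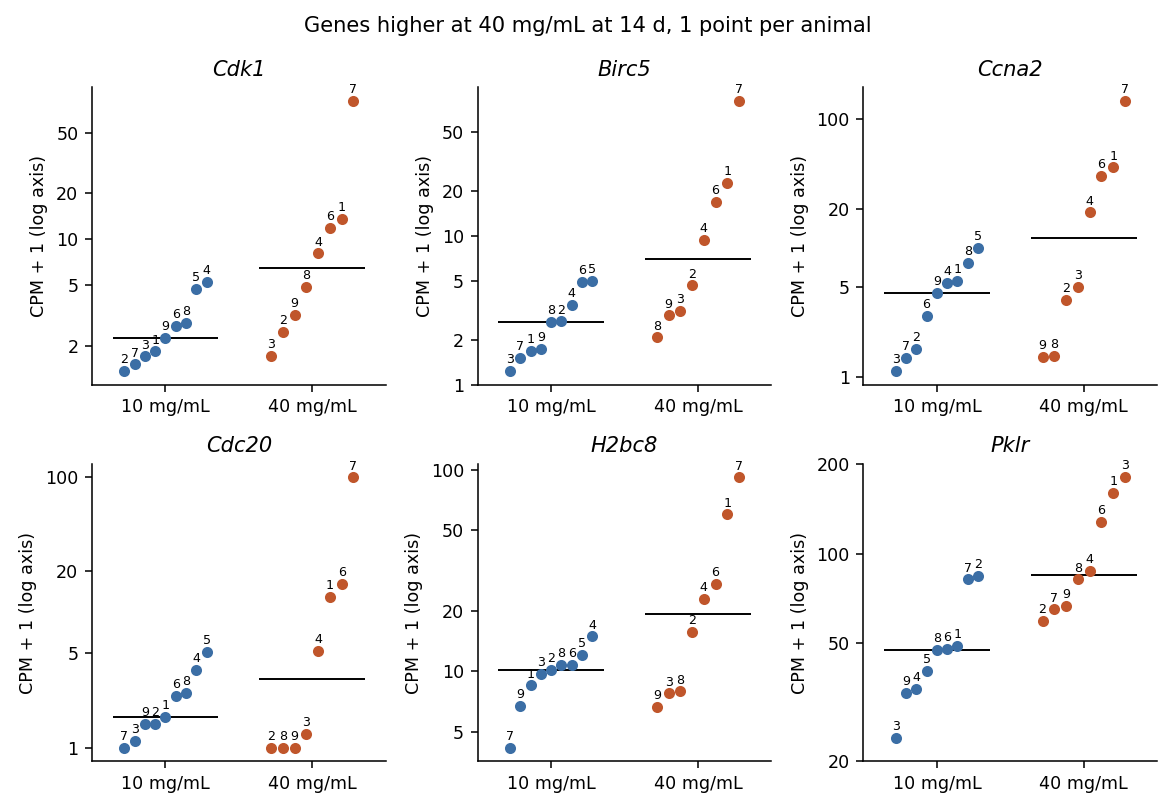
CPM + 1 (log axis) of 6 genes higher at 40 mg/mL, 1 point per animal, with replicate numbers and medians as lines. For Cdk1, Birc5, Ccna2 and Cdc20 replicates 1, 4, 6 and 7 at 40 mg/mL lie above all 9 animals at 10 mg/mL and the other 4 lie among them; H2bc8 has 5 above and Pklr 4.

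Because these genes rose together, the DNA before their start sites is shown for 3 of them. The sequences are the 150 bases that end 1 base before the RefSeq start site (GRCm38.p6), read 5′ to 3′ on the gene's strand, which is the minus strand for all 3. Capitals mark CCAAT, the CCAAT box, and TTTGAA, the core of the cell cycle homology region (CHR), each on either strand (ATTGG and TTCAAA on the other).
Cdk1, chr10:69352913-69353062: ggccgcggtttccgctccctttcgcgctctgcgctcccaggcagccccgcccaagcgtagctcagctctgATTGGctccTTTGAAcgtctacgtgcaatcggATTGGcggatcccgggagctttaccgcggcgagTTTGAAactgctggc
Cdc20, chr4:118437344-118437493: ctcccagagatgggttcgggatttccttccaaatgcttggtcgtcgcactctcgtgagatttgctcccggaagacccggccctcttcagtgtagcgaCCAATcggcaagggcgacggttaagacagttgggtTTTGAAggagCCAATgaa
Ccnb1, chr13:100786487-100786636: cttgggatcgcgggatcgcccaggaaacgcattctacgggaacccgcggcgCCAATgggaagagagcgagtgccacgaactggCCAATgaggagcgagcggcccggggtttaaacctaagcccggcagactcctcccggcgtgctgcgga
The Cdk1 window holds 2 CCAAT and 2 CHR matches, Cdc20 2 and 1, and Ccnb1 2 and 0. Of the 13 risen list members 11 had a promoter in the RefSeq table, and 10 of these 11 hold CCAAT on either strand within 150 bases before at least 1 start, compared with 27.7% of all genes in the table. For TTTGAA it is 4 of 11 compared with 10.5%. All 25 measured list members with a promoter, passed or not, give 20 with CCAAT (80.0%) and 7 with TTTGAA (28.0%). A match is a description of letters in a window, not evidence of a bound factor.

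Other genes rose beside mitosis. H2bc8, a replication-dependent histone gene, had 3.17, 9.18 and 13.9 CPM at 10 mg/mL and 5.66, 18.3 and 90.7 CPM at 40 mg/mL, with 5 of 8 animals above all 9 (3.31-fold higher; log2FC 1.73, SE 0.32, adjusted p = 0.00162). Pklr, liver pyruvate kinase, an enzyme of glycolysis, rose 2.12-fold (log2FC 1.09, SE 0.27, adjusted p = 0.0183), the sole passing gene of 18 in its glucose list. Acaca, which makes malonyl-CoA for fatty acid synthesis, rose 2.02-fold (log2FC 1.01, SE 0.27, adjusted p = 0.0274), with 2 of 8 animals above all 9. Of 21 genes of fatty acid and triglyceride synthesis it alone rose, Dgat1 alone fell, and the median was 0.46. Its listed companions Fasn, Acly, Scd1 and Elovl6 had log2 fold changes of 1.03, 1.15, 1.13 and 1.28 and did not pass (adjusted p = 0.0891 to 0.145).

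Of 21 NRF2 targets, antioxidant genes, 2 rose and 1 (Abcc3) fell. Gstm2, a glutathione transferase, had 36.8, 97.6 and 115 CPM at 10 mg/mL and 61.3, 141 and 211 CPM at 40 mg/mL, with 7 of 8 animals above all 9 (log2FC 0.76, SE 0.21, adjusted p = 0.0328). G6pdx, the first enzyme of the pentose phosphate pathway, rose 4.30-fold (log2FC 2.11, SE 0.49, adjusted p = 0.0127), with its highest value, 56.5 CPM, in replicate 3. Hmox1 and Nqo1 did not pass (log2FC 0.98, SE 0.71, and 0.47, SE 0.24). Trp53inp1 was the gene of the p53 list that rose (log2FC 0.88, SE 0.22, adjusted p = 0.0185; 7 of 8 animals above all 9), of 17 measured.

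Among markers of other cells, 2 of 3 measured erythroid genes rose, and 0 passed among 9 Kupffer cell, 9 sinusoidal endothelial, 12 stellate cell, 4 cholangiocyte, 3 monocyte, 4 T cell, 6 B cell, 2 natural killer cell, 2 neutrophil and 1 acinar genes. Over all probes 2.32% passed, so 0 in lists of 1 to 12 genes is not read as a result about these cells. The acinar genes Cpa1 and Cpb1 and the adipocyte genes Adipoq and Lep were at 0 in all 17 libraries, and no adipocyte gene passed the filter. Hba-a2, an alpha-globin gene, had 0, 12.6 and 20.4 CPM at 10 mg/mL and 2.16, 30.3 and 144 CPM at 40 mg/mL (log2FC 2.36, SE 0.49, adjusted p = 0.0054), and Hbb-bt, a beta-globin, had log2FC 2.43 (SE 0.61). Against controls of 14 d, Hba-a2 passed at 40 mg/mL (log2FC 1.56, adjusted p = 0.0348) and Hbb-bt did not (log2FC 1.36, adjusted p = 0.163). The summed level of the 3 erythroid genes was 1.08 to 24.7 CPM at 10 mg/mL. It was 15.3 to 41.4 CPM at 0 mg/mL and 15.1 to 82.6 CPM at 20 mg/mL. In these groups 5 of 9 and 7 of 9 animals lay above all animals at 10 mg/mL. At 40 mg/mL replicates 7, 1 and 2 had 178.9, 157.5 and 96.7 CPM, replicates 3, 6 and 4 had 31.3 to 38.6 CPM, and replicates 8 and 9 had 4.52 and 16.4 CPM. The cell cycle sum was also highest in replicates 7 and 1, and the part of erythroid cells in it was not tested.

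In 10 pathway lists 0 members passed in either direction: sulfotransferases, fatty acid oxidation and PPARA targets (30 genes), cholesterol synthesis (25), female-biased genes, acute phase proteins (25), the unfolded protein response (24), the circadian clock (19), interferon response (29), iron handling (15) and alcohol and aldehyde dehydrogenases (11). Over all probes 2.32% passed, so 0 in a list of 11 to 30 genes lies near that share. Nothing about these pathways is read from it. The medians of the 10 lists ran from -0.54 for acute phase proteins to 0.20 for the interferon response. Of 20 thyroid hormone responsive genes, 1 (Acaca) rose and the median was 0.03; Thrsp, a lipogenic gene that thyroid hormone induces, had log2FC 0.15 (SE 0.52, adjusted p = 0.93).

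Complete separation of the 2 doses was rare. All 8 animals at 40 mg/mL lay above all 9 at 10 mg/mL for 4 probes (0.0235% of those tested) and below them for 6 (0.0352%); the 9 beside Mup20 were singled out for this after their values were seen. The higher ones were Map4k4_77695, a kinase of stress signalling, at 14.4 to 47.9 against 6.95 to 14.3 CPM (log2FC 1.10, SE 0.22, adjusted p = 0.00171), Sntb1_75419 (log2FC 0.42), Depdc5_70338 (log2FC 1.01) and Rbfox2_62058, which did not pass (log2FC 0.84, adjusted p = 0.0563). The lower ones beside Mup20 and Igfbp2 were Plbd2_66091 (8.09 to 28.7 against 31.4 to 44.7 CPM; log2FC -0.85, SE 0.16, adjusted p = 0.00162), AI182371_69945 (log2FC -0.79), Mfsd3_60782 (log2FC -0.72) and the amino acid transporter Slc38a7 (log2FC -0.55).

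In animals treated for 28 d, which share none with the 14 d groups, the same doses differed in 13 probes (0.0762%), 9 higher and 4 lower. Of these, 4 had also passed at 14 d, which is 1.01% of the 14 d calls and 30.8% of the 28 d calls: Pcgf2, a Polycomb gene, and Fgf21_71031, a hormone of liver stress and fasting (log2FC 2.95 at 14 d and 4.59 at 28 d), were higher at both durations, and Slc46a3 and Igfbp4_76799 lower. Of the 247 probes lower at 14 d, 205 (83.0%) had a negative value at 28 d, beside 44.7% of all probes, and their median there was -0.19, beside 0.03 over all probes. Of the 149 probes higher at 14 d, 71 (47.7%) had a positive value at 28 d, beside 55.3% of all probes, and their median was -0.00241. The major urinary proteins had a median of -0.79 at 28 d (Mup16 -1.0, adjusted p = 0.143), and the cell cycle list -0.44.

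A test of the difference between durations passed for 6 probes (0.0352%) in the main fit. Of these 6, 0 passed with the covariate and 1 passed in limma. In both of those fits 0 probes passed as higher at 14 d relative to 28 d. Birc5, Cdk1 and H2bc8 were higher at 40 mg/mL at 14 d relative to 28 d, by 4.36 (SE 0.88, adjusted p = 0.0308), 4.46 (SE 0.90, adjusted p = 0.0308) and 2.15 (SE 0.45, adjusted p = 0.0464) log2 units. At 28 d the cell cycle sum was 74.7 to 162 CPM at 40 mg/mL and 101 to 135 CPM at 10 mg/mL. Atad2b (log2 difference -1.12, SE 0.22, adjusted p = 0.0308) and both Serpina7 probes were the other 3. For Mup20, the difference between durations did not pass (log2 difference -1.44, SE 0.43, adjusted p = 0.204), nor for Mup7 (adjusted p = 0.369).

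**Figure D5:**
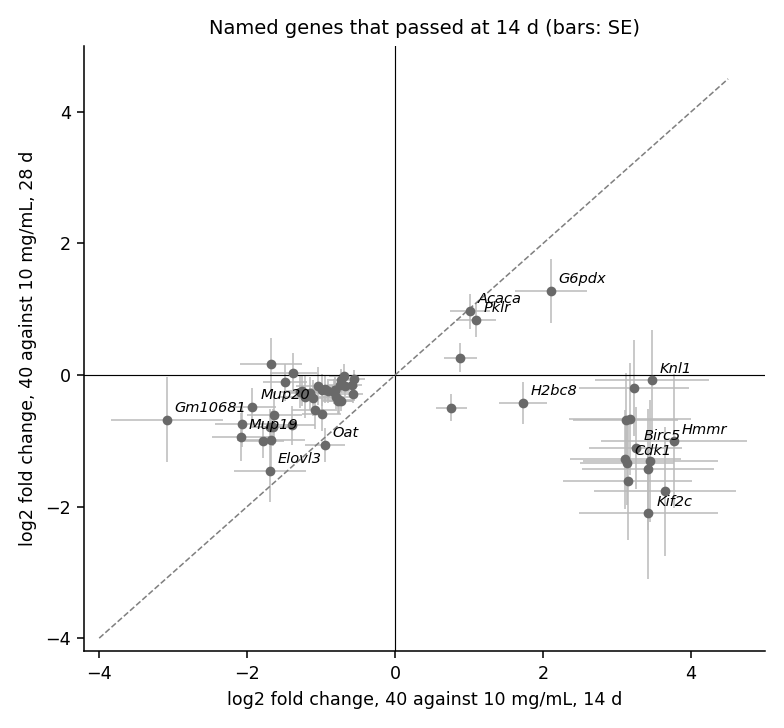
Log2 fold change of 40 against 10 mg/mL at 14 d (horizontal) and 28 d (vertical) for the 59 named probes that passed at 14 d, with SE bars and a dashed line of equal change. The named cell cycle genes lie above 3 at 14 d and below 0 at 28 d, while lower genes such as Mup19 and Elovl3 keep negative values at 28 d.

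For 55 of the 59 named probes that passed, the mean at 20 mg/mL for 14 d lay between those at 10 and 40 mg/mL. This held for 42.5% of all probes and 89.4% of the 396 that passed. Probes chosen because 10 and 40 mg/mL differ leave more room between them, so nothing is read from the higher share. Medians of Mup7 at 0, 10, 20 and 40 mg/mL were 6540, 7010, 3610 and 1240 CPM, and those of Cdk1 were 1.91, 1.25, 3.87 and 5.46 CPM. Against controls, 0 of the 59 passed at 10 mg/mL; these comparisons share the 10 mg/mL animals with the one above. Mup7 had log2 fold changes of -0.16 at 10 mg/mL and -2.23 at 40 mg/mL, Cyp2c54 0.47 and -1.16, and Birc5 0.30 and 3.55. For Cyp2c50 the values were 0.76 and -0.28.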

How the data were processed

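The authors deposited whole-number counts per probe for 30146 probes in 72 libraries. Per the submitters' processing notes bcl2fastq 2.20 and Bowtie were used; the genome build and the counting tool are not given in the sources used here. The members and gene lists were chosen with earlier results of these data known. Libraries under 100000 counts were left out, which removed 1. The other 71 held 7.77 to 12.68 M counts. In edgeR 4.0.16 (R 4.3.3) 17050 probes passed filterByExpr and held 99.9% of counts; TMM scaling and 1 robust quasi-likelihood fit over the 8 groups gave the contrasts, with Benjamini-Hochberg adjustment over all probes at 0.05. Fold changes are fitted, so they can differ from ratios of medians. Library measures were compared by exact permutation (Python 3.11.15, scipy 1.17.1). Alternatives used DESeq2 1.42.0, limma 3.58.1, other scalings and filters, and left-out libraries; 1 was chosen after seeing the data. Named genes were 20 thyroid and drug metabolism genes, the 10 largest changes each way among probes averaging 5 CPM or more, up to 4 passing members per list, and up to 5 probes each way for the difference between durations. The most abundant probe stands for a gene. Other probes of a passing gene did not always pass, and only some of them are named. Shared 50-base windows and promoters came from RefSeq tables of GRCm38.p6; all 75 named symbols matched. Of the named genes, 1 is not reported here. Scripts were tested on simulated data.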

Additional observations from a re-analysis of the deposited data

Results flagged for a closer look

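Of 182 groups of values examined, each 1 probe at 1 dose, 1 animal stood far from the others in 27. Chance flags about 1 in 20 groups, but the probes share the same animals, so the 27 flags are not independent. In 18 of these the animal was replicate 2 at 10 mg/mL, with the lowest value. Major urinary proteins lead this set. Mup13 had 3620 CPM against 18000 to 34700 CPM, Mup15 had 236 CPM against 895 to 1700 CPM and Mup16 had 46.6 CPM against 159 to 403 CPM in the other 8 animals. Mup19 had 292 CPM against 2100 to 5360 CPM and Mup7 had 493 CPM against 3410 to 8580 CPM in the other 8 animals. The P450 and conjugating enzymes and the carboxylesterase follow. Ces2a had 207 CPM against 564 to 971 CPM, Cyp1a2 had 55.5 CPM against 221 to 458 CPM and Cyp2c54 had 1640 CPM against 3680 to 6980 CPM in the other 8 animals. Cyp2e1 had 2390 CPM against 5490 to 8800 CPM and Ugt2b1 had 18.7 CPM against 72.1 to 101 CPM in the other 8 animals. Secreted proteins, transporters and metabolic enzymes make up the rest. Apoe had 23900 CPM against 38600 to 57400 CPM, C8b_32265 had 24.6 CPM against 86.4 to 165 CPM and C8b_73022 had 97 CPM against 228 to 345 CPM in the other 8 animals. Otc had 154 CPM against 315 to 444 CPM, Proc had 112 CPM against 158 to 223 CPM and Slc27a5 had 476 CPM against 1100 to 1860 CPM in the other 8 animals. Slco1a1 had 0.579 CPM against 11 to 43.5 CPM in the other 8 animals. Hba-a2 was at 0 CPM there against 3.89 to 20.4 CPM. This animal also has the highest scaling factor at 10 mg/mL, 1.26.

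Atad2b was high in replicate 6 at 40 mg/mL, at 22.3 CPM against 10.2 to 12.4 CPM. G6pdx was high in replicate 7 at 10 mg/mL, at 12.1 CPM against 0.623 to 3.35 CPM. Gstm2 was low in replicate 2 at 40 mg/mL, at 61.3 CPM against 118 to 211 CPM. Mup20 was high in replicate 3 at 10 mg/mL, at 123 CPM against 29.9 to 53.6 CPM. Por was high in replicate 9 at 40 mg/mL, at 266 CPM against 23.5 to 74.3 CPM. Slco1a4 was high in replicate 9 at 40 mg/mL, at 25.9 CPM against 4.19 to 10.1 CPM. Sult1e1 was high in replicate 9 at 40 mg/mL, at 143 CPM against 0 to 6.27 CPM. Egfr_29812 was high in replicate 8 at 10 mg/mL, at 291 CPM against 82 to 142 CPM. Plbd2_66091 was high in replicate 8 at 10 mg/mL, at 44.7 CPM against 31.4 to 37.2 CPM.

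The difference between 40 and 10 mg/mL itself differed between 14 and 28 d for 6 probes in the main fit, by the test of that difference (14 d minus 28 d, log2). It was 4.36 for Birc5, 4.46 for Cdk1, 2.15 for H2bc8, -1.12 for Atad2b, -4.70 for Serpina7_66792 and -5.29 for Serpina7_78674.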

How the results depend on the processing

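Main counts at 14 d were 149 higher and 247 lower. Counts (higher, lower) within 1.5 times of both came from DESeq2 size factors (161, 231), TMM without the 20 most abundant probes (139, 262), probes summed per gene (179, 257) and no count filter (102, 190). They were 232 and 319 at a mean of at least 5 CPM, 208 and 523 in DESeq2 (which left 9917 probes without an adjusted p), 40 and 249 in limma with quality weights, 0 and 1 with the 2 groups alone, 2 and 0 with the log2 scaling factor as covariate, and 19 and 70 with the library under 100000 counts kept, where the median of all probes was -0.08 in place of 0.04. Without replicates 1 and 7 at 40 mg/mL they were 2 and 8, and, chosen after seeing the data, also without replicate 2 at 10 mg/mL, 6 and 30. Leaving out 1 animal gave 17 to 286 higher and 44 to 584 lower, lowest without replicate 7 and highest without replicate 6 at 40 mg/mL. At 28 d (9, 4) the covariate gave 165 and 60 and limma 73 and 87; for the difference between durations (3, 3) they gave 0 and 1, and 0 and 2. Without replicates 1 and 7 the share of the 20 most abundant probes differed by -4.62 points (exact permutation, adjusted p = 0.00659), the scaling factor by 0.203 and the total by -0.0571 M; with the failed library kept the total differed by -1.28 M.

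Of the 59 named probes that passed, 0 passed with the covariate or the 2 groups alone, 27 with the failed library kept, 38 in limma and 5 without replicates 1 and 7; none of them reversed. Sign changes among the genes reported fell to those that had not passed. With the covariate they were Cyp2c29 (0.25), Cyp3a11 (0.14), Serpina7_66792 (0.61), Serpina7_78674 (0.34), Sult1a1 (0.26), Ttr (0.0812) and Ugt1a9 (0.65). In limma they were Cyp2b10 (-0.90), Serpina7_66792 (1.17) and Serpina7_78674 (0.86). Without replicate 9 at 40 mg/mL they were Cyp2b10 (-1.44), Sult1e1 (-2.0) and Thrsp (-0.17), and without replicate 3 at 10 mg/mL Serpina7_66792 (0.93) and Serpina7_78674 (0.36). Without replicates 1 and 7 at 40 mg/mL they were Por (0.0946) and Sult1a1 (0.089), and also without replicate 2 at 10 mg/mL Por (0.345) and Sult1a1 (0.0545), where Cyp2b10 was 1.2 and Sult1e1 3.63. Sult1a1 was 0.0216 at 5 CPM. Leaving out 1 animal gave -0.887 to 0.0914 for Por, -0.693 to 0.933 for Serpina7_66792, -1.18 to 0.362 for Serpina7_78674, -0.184 to 0.052 for Sult1a1, -2.0 to 3.22 for Sult1e1, -0.174 to 0.979 for Thrsp and -1.44 to 0.804 for Cyp2b10. The cause was not tested. No paired analysis was possible because the labels give no replicate numbers that the groups share. Levels near 1 CPM, as for mitosis genes at 10 mg/mL, rest on about 10 counts per library.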
